A study of Mus musculus with 8 samples.

Results

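Cytochrome P450 enzymes of families 2, 3 and 4 were followed in the kidney of SDHD-ESR and +/- mice. The members were chosen by name alone, as array features whose gene symbol starts with Cyp2, Cyp3 or Cyp4 followed by a subfamily letter and a number. They made up 110 features of 78 genes among 45220 features on the array. SDHD-ESR mice carried 1 floxed and 1 null Sdhd allele together with a tamoxifen-inducible Cre-ER recombinase, which removes the floxed copy. The +/- mice carried the same floxed and null alleles and no Cre, and the +/+ pool came from mice with 1 floxed and 1 intact allele and no Cre. Sdhd encodes a membrane anchor of succinate dehydrogenase, complex II of the respiratory chain. All mice were males on a 129/SvJ background that received tamoxifen at 100 µg/g daily for 4 days from 9 weeks of age and were killed at 10 weeks. Each group filled 4 two-colour arrays with 2 mice per array, and RNA from a pool of 8 +/+ mice was the common reference on all 8 arrays. Loss of Sdhd came together with the Cre transgene, so the effects of both cannot be told apart.

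P450 enzymes are haem proteins of the endoplasmic reticulum that insert an oxygen atom into lipids, steroids and drugs, with electrons supplied by P450 reductase and cytochrome b5. In the kidney, Cyp2c and Cyp2j enzymes convert arachidonic acid to epoxides that relax vessels, soluble epoxide hydrolase removes these epoxides, and Cyp4a enzymes hydroxylate the end of the fatty acid chain and thereby produce a constrictor of renal vessels. Many of these genes lie in clusters of close relatives, and several depend on sex hormones in the mouse kidney: Cyp4a12a, Cyp2j5 and Cyp4b1 are known as male-biased and Cyp4a14 as female-biased.

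Values are log2 ratios of kidney RNA over the +/+ pool, each array centred on its median, so that 0 is the level of a typical feature relative to the pool. The table was rearranged with a layout inferred from its values, and the sign was turned because Sdhd stood above the pool as deposited; the direction is therefore likely rather than settled. After the turn, Sdhd stood at -4.26, -3.65, -5.04 and -3.25 in SDHD-ESR kidney, against -0.79, -0.40, -0.92 and -0.93 in +/- kidney. Replicates 1 and 2 of each group shared slide 1 and replicates 3 and 4 shared slide 2, and the position on the slide followed the group. Before centring the median lay 0.26 higher in SDHD-ESR than in +/- arrays and 0.59 higher on slide 2 than on slide 1. In whole kidney RNA, fewer cells of a type and less RNA per cell cannot be told apart. Of the members, 100 features of 72 genes were tested, having 3 or more values per group; Cyp2b9, Cyp2b19, Cyp2b23, Cyp3a25, Cyp3a41b and Cyp3a44 had no tested feature. Precision is limited by there being only 4 arrays a group, and signal over background was not used here.

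The stretches upstream of 6 member genes are shown because the differences of these genes are described below, namely 1 gene each of Cyp4a, Cyp2j, Cyp2b and Cyp2c and a pair of Cyp2d relatives with unlike values. They are the 250 bases before the annotated start, from RefSeq on build GRCm38.p6, written 5′ to 3′ on the strand of the gene. The windows are chr4:115600688-115600937, plus strand for Cyp4a32; chr4:96077541-96077790, minus strand for Cyp2j13; chr7:25897408-25897657, plus strand for Cyp2b10; chr19:40187287-40187536, minus strand for Cyp2c70; chr15:82407195-82407444, minus strand for Cyp2d10; and chr15:82452127-82452376, plus strand for Cyp2d9. Capitals mark matches, on either strand, to AGGTCA, which is a site of nuclear receptors, to TTCNNNGAA, a STAT type element, and to CAAAGTCCA, an element of the HNF4 type. The TATA box was searched as TATAAA in the same way, and no match of one motif overlapped another in the stretches shown. The motifs were picked after promoters of these genes had been seen.
Cyp4a32: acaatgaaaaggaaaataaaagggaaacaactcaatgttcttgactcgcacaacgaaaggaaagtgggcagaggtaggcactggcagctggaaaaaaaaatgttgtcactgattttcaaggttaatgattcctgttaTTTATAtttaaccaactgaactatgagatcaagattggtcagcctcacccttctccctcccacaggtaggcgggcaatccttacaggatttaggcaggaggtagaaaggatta
Cyp2j13: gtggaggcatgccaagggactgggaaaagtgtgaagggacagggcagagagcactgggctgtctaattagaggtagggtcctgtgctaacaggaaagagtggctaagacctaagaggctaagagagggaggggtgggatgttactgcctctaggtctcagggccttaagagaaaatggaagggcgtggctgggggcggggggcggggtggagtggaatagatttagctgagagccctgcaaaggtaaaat
Cyp2b10: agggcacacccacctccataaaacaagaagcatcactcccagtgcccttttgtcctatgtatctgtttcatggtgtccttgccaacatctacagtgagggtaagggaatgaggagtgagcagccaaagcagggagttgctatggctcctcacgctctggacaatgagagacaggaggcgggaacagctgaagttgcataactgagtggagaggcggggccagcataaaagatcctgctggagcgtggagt
Cyp2c70: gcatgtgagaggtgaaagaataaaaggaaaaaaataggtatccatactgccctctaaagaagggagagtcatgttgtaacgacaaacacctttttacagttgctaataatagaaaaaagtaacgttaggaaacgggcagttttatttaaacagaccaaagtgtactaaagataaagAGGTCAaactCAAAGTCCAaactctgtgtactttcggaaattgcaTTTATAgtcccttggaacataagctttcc
Cyp2d10: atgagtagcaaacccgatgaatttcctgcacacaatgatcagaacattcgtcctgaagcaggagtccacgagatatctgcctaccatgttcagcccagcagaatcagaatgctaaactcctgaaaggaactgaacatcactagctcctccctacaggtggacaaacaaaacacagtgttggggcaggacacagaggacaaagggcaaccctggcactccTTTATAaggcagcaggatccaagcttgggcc
Cyp2d9: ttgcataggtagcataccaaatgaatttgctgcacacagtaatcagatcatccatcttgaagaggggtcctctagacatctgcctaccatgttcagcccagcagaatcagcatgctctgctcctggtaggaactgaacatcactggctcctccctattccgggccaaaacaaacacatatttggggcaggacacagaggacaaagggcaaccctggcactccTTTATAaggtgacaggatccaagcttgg
Of the member genes 58 of 78 had such a window, in 65 of the 32851 windows of all genes. TATAAA occurred in 33.8% of member windows and 12.4% of all windows, AGGTCA in 26.2% and 14.0%, CAAAGTCCA in 10.8% and 0.384%, and TTCNNNGAA in 4.62% and 7.02%. Cyp2d10 and Cyp2d9 were 82.8% identical over the aligned stretch. Both held a match to TATAAA on the reverse strand, starting 31 and 28 bases before the start. On the strand of the gene both read TTTATAagg there, so the match does not settle the orientation of a TATA element. In Cyp4a32 the match began 113 bases before the start. Cyp2c70 held matches to the nuclear receptor site, the HNF4 type element and TATAAA at 74, 64 and 29 bases. The TATAAA matches of Cyp4a32 and Cyp2c70 were likewise on the reverse strand. These matches describe the windows and are not shown to be bound.

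Between SDHD-ESR and +/- kidney no P450 feature passed an adjusted p of 0.05 in limma, either higher (0 of 100, against 0.0127% of all 39253 features) or lower (0 of 100, against 0.00255%). The smallest adjusted p among members was 0.416. At an unadjusted p of 0.05, 9 features were higher (background 3.88%) and 4 were lower (3.34%), and the methods' t-test gave 8 and 3. The groups did not overlap in 4 features that were higher (2.84% of all features) and 3 that were lower (2.53%). Of 86 features away from 0, as defined below, 50 were higher and 36 lower, with a median difference of 0.04 against 0.02 over all features. The single differences that follow are thus estimates with their errors, and none passed adjustment over the array. The plot of differences by subfamily sets these estimates side by side.

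**Figure D1:**
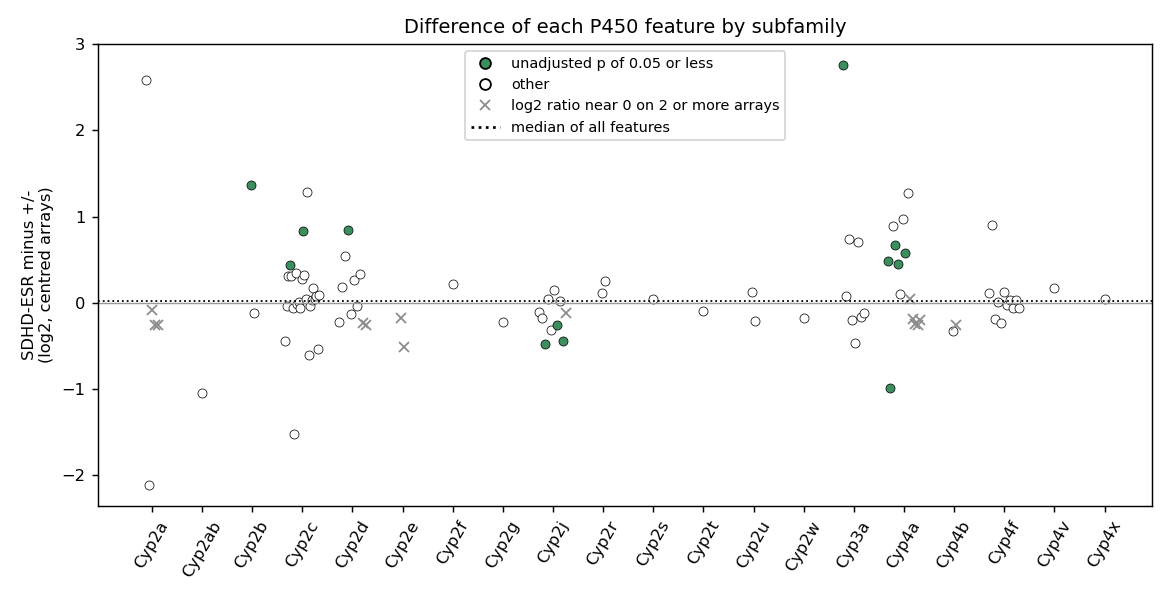
Difference of each tested P450 feature, SDHD-ESR minus +/-, in log2 units on centred arrays (vertical axis), by subfamily (horizontal axis). Filled points reached an unadjusted p of 0.05 (limma), and crosses mark features near 0 on at least 2 arrays. The dotted line is the median of all features. In Cyp4a 8 of 9 features away from 0 lie above 0. In Cyp2j 6 of 9 lie below 0, a count that depends on centring.

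Most Cyp4a features had higher values in SDHD-ESR kidney. Of 9 features away from 0, 8 were higher in SDHD-ESR kidney and 1 was lower, with a median difference of 0.58. With the 5 Cyp4a features near 0 included, which are not read for direction, the median was 0.27. Of all 37529 features away from 0, 20506 were higher. In limma, 4 of the higher Cyp4a features and the 1 lower reached an unadjusted p of 0.05 (background 3.88% and 3.34%). Several of the 8 belong to Cyp4a10, Cyp4a31 and Cyp4a32, near-identical copies as described below, so the 8 are not separate observations. Cyp4a14, a fatty acid hydroxylase induced through PPAR alpha in mouse liver, measured 2.10, 2.42, 0.94 and 0.15 in SDHD-ESR arrays, against 0.86, -0.48, -0.90 and 1.05 in +/- arrays. The 2 highest values were the SDHD-ESR arrays of slide 1, and the groups overlapped. Its difference of 1.27 ± 0.65 (SE, n = 4 each) was not called by limma (adjusted p = 0.743), and an exact permutation test gave p = 0.143, two-sided.

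Cyp4a32, a close relative of Cyp4a10 in the same cluster, measured 0.83, 1.27, 0.86 and 0.41 in SDHD-ESR arrays, against 0.21, 0.06, 0.04 and 0.39 in +/- arrays. All SDHD-ESR arrays stood above all +/- arrays, though the lowest of the one and the highest of the other nearly met. The difference was 0.67 ± 0.19 (SE), or 1.59-fold (limma, adjusted p = 0.539). The Cyp4a10 feature away from 0 measured 1.18, 1.5, 0.82 and 0.46 in SDHD-ESR arrays and 0.40, 0.38, 0.28 and 0.59 in +/- arrays. Its groups overlapped through replicate 4 of each group. Cyp4a10 is likewise a PPAR alpha-inducible hydroxylase in mouse liver, and it differed by 0.58 ± 0.22 (SE; limma, adjusted p = 0.649).

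Both features of Cyp4a31 away from 0 were higher, with differences of 0.49 ± 0.18 and 0.45 ± 0.16 (SE; limma, adjusted p = 0.639 for each). The first of them measured 0.48, 0.98, 0.27 and 0.18 in SDHD-ESR arrays, against -0.02, -0.16, 0.00 and 0.11 in +/- arrays, without overlap. Cyp4a10, Cyp4a31 and Cyp4a32 are near-identical copies, so a probe may read more than one of them and the values cannot be assigned to single genes with certainty. The differences were larger on slide 1 than on slide 2 for these genes, at 0.81 and 0.17 for the first Cyp4a31 feature, 0.77 and 0.13 for the second, 0.95 and 0.21 for Cyp4a10 and 0.92 and 0.42 for Cyp4a32. The test of this change between slides gave adjusted p = 0.643, 0.597, 0.622 and 0.760 in limma. In these 3 genes and in Cyp4a14, replicate 4 was the lowest SDHD-ESR array and the highest +/- array in the features named here. Over the 8 arrays the members most like Cyp4a14 were features of Cyp4a31 (r = 0.912), Cyp4a10 (r = 0.900) and Cyp4a32 (r = 0.870), and the non-members most like it were Eppk1 (r = 0.973), Pex11a (r = 0.972) and Fbrsl1 (r = 0.970), out of 34401 features; these values share arrays, slides and group and serve as description.

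**Figure D2:**
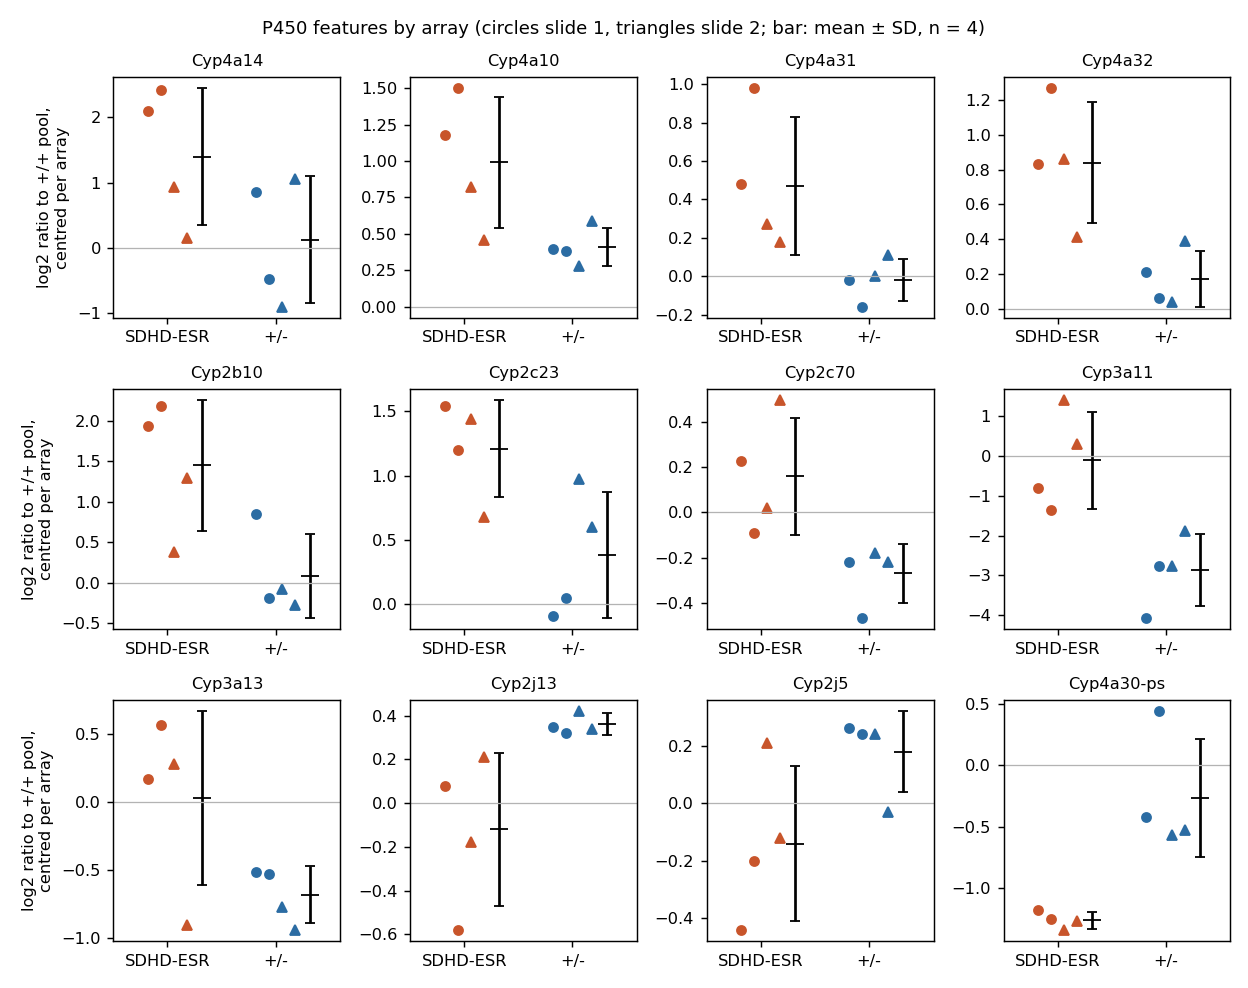
Log2 ratio to the +/+ pool on centred arrays (vertical axis) of 12 P450 features in SDHD-ESR (left) and +/- (right) kidney; circles are arrays of slide 1, triangles arrays of slide 2, and bars the mean ± SD of 4 arrays. Cyp4a32, Cyp4a31, Cyp2c70 and Cyp3a11 are higher without overlap in SDHD-ESR, and Cyp2j13 and Cyp4a30-ps are lower without overlap.

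The pseudogene Cyp4a30-ps, which lies between Cyp4a12a and Cyp4a12b on chromosome 4, went the other way at one feature and had the smallest p of all members. It measured -1.18, -1.25, -1.34 and -1.27 in SDHD-ESR arrays, against -0.42, 0.44, -0.57 and -0.53 in +/- arrays. The SDHD-ESR arrays lay within a narrow band below all +/- arrays, and the difference was -0.99 ± 0.23 (SE; limma, adjusted p = 0.416). Its other feature differed by 0.89 ± 0.66 with overlap, so the features of this pseudogene disagreed in sign. Along the cluster, in RefSeq gene order, Cyp4a14 and Cyp4a10 adjoin, Cyp4b1-ps2 lies between Cyp4a31 and Cyp4a32, and Cyp4b1 follows Cyp4a32. The pseudogene Cyp4b1-ps2 differed by -0.33 ± 0.19, unlike its neighbours on either side (limma, adjusted p = 0.781). At the far end, Cyp4x1 differed by 0.04 ± 0.34 (SE).

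Several P450 genes known as abundant in male kidney could not be read. In 14 of the 100 tested features (14.0%, from 11 genes, against 4.39% of all tested features) the log2 ratio as deposited lay within 0.01 of 0 on 2 or more arrays, as a spot saturated in both channels would, although saturation itself is not recorded in the table. They were Cyp2a4, Cyp2a21-ps, Cyp2d11, Cyp2d26, Cyp2e1, Cyp2j8, Cyp4a12a, Cyp4a12b and Cyp4b1, with 2 of 3 features of Cyp4a10 and 1 of 3 of Cyp4a31. Cyp4a12a, the main arachidonic acid hydroxylase of male mouse kidney, ranged between -0.014 and 0.001 in SDHD-ESR arrays and between -0.003 and 0.001 in +/- arrays before centring. Cyp4b1 ranged between -0.005 and 0.002 in SDHD-ESR arrays and between -0.004 and -0.001 in +/- arrays. The alcohol-inducible Cyp2e1 had 1 feature between -0.008 and 0.001 in SDHD-ESR arrays, and in +/- arrays between -0.006 and a single value of 0.997 on replicate 3. A value that stays at 0 on all arrays, as in Cyp2d26 and Cyp4b1, becomes -0.26 between the groups by centring alone. Over the 14 features the centred differences ran between -0.51 and 0.05. At 1 feature each of Cyp4a10 and Cyp2a4 only +/- replicates 1 and 2 lay within 0.01 of 0; that Cyp4a10 feature stood at 0.064, 0.197, 0.504 and 1.009 in SDHD-ESR arrays, against 0.002, 0.001, 0.223 and 0.288 in +/- arrays before centring, higher on slide 2 in both groups. No direction is given for them. The male-biased Cyp4a12a, Cyp4a12b, Cyp4b1 and Cyp2e1 therefore have no measured change.

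**Figure D3:**
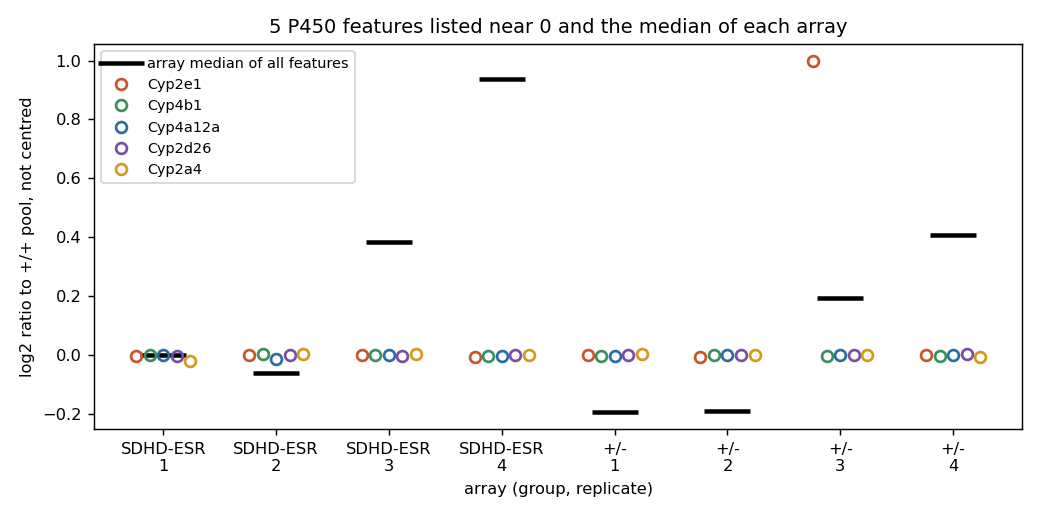
Log2 ratio to the +/+ pool before centring (vertical axis) of 1 feature each of Cyp2e1, Cyp4b1, Cyp4a12a, Cyp2d26 and Cyp2a4 on each array (horizontal axis), with the median of all features as a bar. All 5 stay near 0 while the array median runs to 0.94 in SDHD-ESR replicate 4; the exception is Cyp2e1 at 0.997 in +/- replicate 3.

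Among the epoxygenases, Cyp2c23 was higher and Cyp2j13 lower in SDHD-ESR kidney at an unadjusted p of 0.05 on centred arrays. For Cyp2j13 this depended on centring. Cyp2c23, a main arachidonic acid epoxygenase of rodent kidney, measured 1.54, 1.20, 1.44 and 0.68 in SDHD-ESR arrays, against -0.09, 0.05, 0.97 and 0.60 in +/- arrays. The +/- arrays were split by slide, and both of slide 2 stood close to the lowest SDHD-ESR array. The difference was 0.83 ± 0.29 (SE), or 1.78-fold (limma, adjusted p = 0.623), with 1.39 on slide 1 and 0.27 on slide 2. Of 24 Cyp2c features, 10 of them for Cyp2c29, 15 were higher and 9 lower, with a median difference of 0.05.

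All 3 features of Cyp2j13, a Cyp2j gene that is male-biased in mouse kidney, were lower, with differences of -0.48 ± 0.17, -0.44 ± 0.18 and -0.26 ± 0.10 (SE; limma, adjusted p = 0.638, 0.682 and 0.660). The first of them measured 0.08, -0.58, -0.18 and 0.21 in SDHD-ESR arrays, against 0.35, 0.32, 0.42 and 0.34 in +/- arrays. The +/- arrays were tightly grouped and all stood above the SDHD-ESR arrays, which spread more widely. Without centring the same 3 features differed by -0.22, -0.18 and 0.00. The first of these had an unadjusted p of 0.577 and the second 0.575 in limma. Their distance from 0 thus rests in part on the array medians, and at the third feature wholly so. Cyp2j5, the abundant proximal tubule epoxygenase of the mouse, measured -0.44, -0.20, 0.21 and -0.12 in SDHD-ESR arrays, against 0.26, 0.24, 0.24 and -0.03 in +/- arrays. Its difference of -0.32 ± 0.15 (SE; limma, adjusted p = 0.722) was -0.57 on slide 1 and -0.07 on slide 2. Without centring the difference of Cyp2j5 was -0.06. Of the 9 Cyp2j features away from 0, 3 were higher and 6 lower on centred arrays, with a median of -0.17. The 3 that reached an unadjusted p of 0.05 (limma) were all Cyp2j13. Those of Cyp2j6, Cyp2j7, Cyp2j9 and Cyp2j11 lay between -0.17 and 0.15, and without centring between 0.09 and 0.41. The count of lower Cyp2j features thus depends on centring.

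Cyp2b10, the classical target of the receptor CAR in mouse liver, measured 1.94, 2.18, 0.38 and 1.29 in SDHD-ESR arrays, against 0.85, -0.19, -0.08 and -0.27 in +/- arrays. SDHD-ESR replicate 3 fell below the highest +/- array, and the other SDHD-ESR arrays stood above all of them. The difference was 1.37 ± 0.44 (SE), or 2.59-fold (limma, adjusted p = 0.584). Cyp2c70, which makes muricholic acids in mouse liver, measured 0.23, -0.09, 0.02 and 0.50 in SDHD-ESR arrays and -0.22, -0.47, -0.18 and -0.22 in +/- arrays. The groups did not overlap, and the difference was 0.44 ± 0.15 (SE; limma, adjusted p = 0.605). With 4 against 4 arrays, groups that do not overlap reach the smallest two-sided p of an exact permutation test, 0.0286.

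Cyp3a11, the main inducible Cyp3a enzyme of mouse liver, measured -0.81, -1.35, 1.42 and 0.30 at one feature in SDHD-ESR arrays, against -4.08, -2.75, -2.76 and -1.88 in +/- arrays. All +/- arrays were far below the pool, and the SDHD-ESR arrays lay on both sides of it. The difference was 2.76 ± 0.69 (SE), or 6.77-fold (limma, adjusted p = 0.483). The other Cyp3a11 feature differed by -0.16 ± 0.52 and overlapped, so the 2 probes of the gene disagreed. Cyp3a13, a Cyp3a enzyme of intestine and liver, measured 0.17, 0.57, 0.28 and -0.90 in SDHD-ESR arrays, against -0.51, -0.53, -0.77 and -0.94 in +/- arrays. SDHD-ESR replicate 4 lay among the +/- arrays, and the other 3 stood above them. This feature differed by 0.71 ± 0.31 and the other by 0.74 ± 0.64 (SE; limma, adjusted p = 0.699 and 0.851), and the second of them was 1.64 on slide 1 and -0.15 on slide 2. Over all 8 Cyp3a features 4 were higher and 4 lower, with a median of -0.02.

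Cyp2d10 measured -1.25, -1.47, -1.33 and -0.28 in SDHD-ESR arrays, against -2.24, -2.26, -1.96 and -1.23 in +/- arrays. After centring it was below the pool on every array, and less so in SDHD-ESR kidney by 0.84 ± 0.33 (SE, limma adjusted p = 0.661). Before centring its highest SDHD-ESR array stood above the pool at 0.65, and the difference was 1.10. Cyp2d9, a male-biased testosterone hydroxylase of mouse liver, behaved differently and split by slide. It measured 1.48, 1.19, -1.09 and -0.41 in SDHD-ESR arrays, against -0.08, -0.04, 1.21 and 0.97 in +/- arrays. SDHD-ESR stood above +/- on slide 1 by 1.39 and below it on slide 2 by a difference of -1.84, which left -0.22 ± 0.64 overall. The 4 features away from 0 with the smallest p in the test of this difference between slides were Cyp2d12, Cyp2d9, Cyp2d34 and Cyp2d22, at -1.79 ± 0.19, -3.23 ± 0.35, -2.96 ± 0.42 and -1.22 ± 0.22 for slide 2 minus slide 1 (SE; limma, adjusted p = 0.337, 0.337, 0.394 and 0.461). They were singled out after their values had been seen. Of 92 members with 8 values, 0 passed adjustment (0 of all 34401 features) and 13 reached an unadjusted p of 0.05, against 7.77% of all features. Of 78 features away from 0 plotted by slide, 38 had the same sign on both slides.

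**Figure D4:**
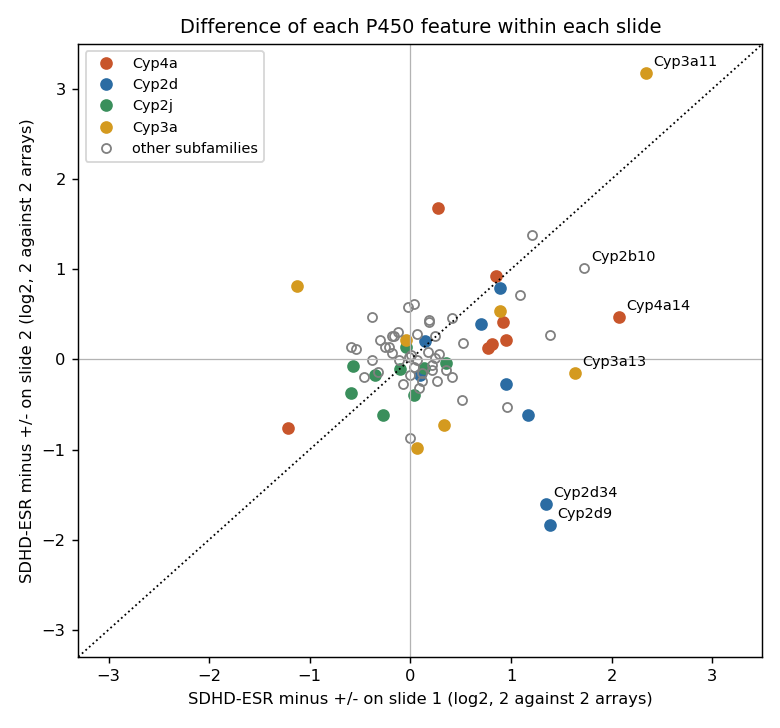
Difference SDHD-ESR minus +/- in log2 units on slide 1 (horizontal axis) and on slide 2 (vertical axis), 2 arrays against 2 on each, for 78 P450 features away from 0 with values on all arrays. Points on the dotted line have equal differences; Cyp2d9 and Cyp2d34 lie at the lower right, higher in SDHD-ESR on slide 1 and lower on slide 2, and Cyp4a14 has 2.07 on slide 1 and 0.47 on slide 2.

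The remaining subfamilies gave small or imprecise values. Of 11 Cyp4f features, whose enzymes inactivate leukotrienes and other lipids, 6 were higher and 5 lower with a median of 0.01; the Cyp4f gene of smallest p was Cyp4f40, at 0.90 ± 0.45 (SE; limma, adjusted p = 0.743). Cyp2a12 differed by 2.59 ± 1.70, and Cyp2a22, Cyp2ab1 and Cyp2c67 differed by -2.11 ± 1.14, -1.04 ± 0.61 and -1.52 ± 0.81 with values missing on 1 or 2 arrays at each of these 4 features, and their groups overlapped. The second Cyp2c67 feature, with values on all arrays, differed by 0.05 ± 0.14. The vitamin D hydroxylase Cyp2r1 differed by 0.25 ± 0.17 and 0.11 ± 0.24 at its features, and Cyp2s1 by 0.05 ± 0.12. Cyp2u1 differed by -0.21 ± 0.18 and 0.13 ± 0.31.

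Each group was also set against the +/+ pool. These comparisons share the pool, which is a single RNA mixture without spread of its own. In SDHD-ESR kidney 8 P450 features of 7 genes were higher than the pool (adjusted p of 0.05 or less in limma, background 14.4%) and 15 features of 6 genes were lower (background 7.72%). In +/- kidney 2 features were higher (background 10.0%) and 17 features of 8 genes were lower (background 5.94%). The genes above the pool in SDHD-ESR were Cyp2b10, Cyp2c23, Cyp2r1, Cyp2s1, Cyp4a10, Cyp4a31 and Cyp4a32, and those in +/- were Cyp2u1 and Cyp4a31. Cyp2c23 averaged 1.21 ± 0.38 in SDHD-ESR and 0.38 ± 0.49 in +/- arrays (SD, n = 4 each; limma, adjusted p = 0.00862 and 0.218 against the pool). Cyp4a14 averaged 1.40 ± 1.05 in SDHD-ESR and 0.13 ± 0.97 in +/- arrays and was called in neither. Without centring the counts were 6 higher and 0 lower in SDHD-ESR and 0 and 0 in +/- kidney, so every call of a lower level depends on centring.

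**Figure D5:**
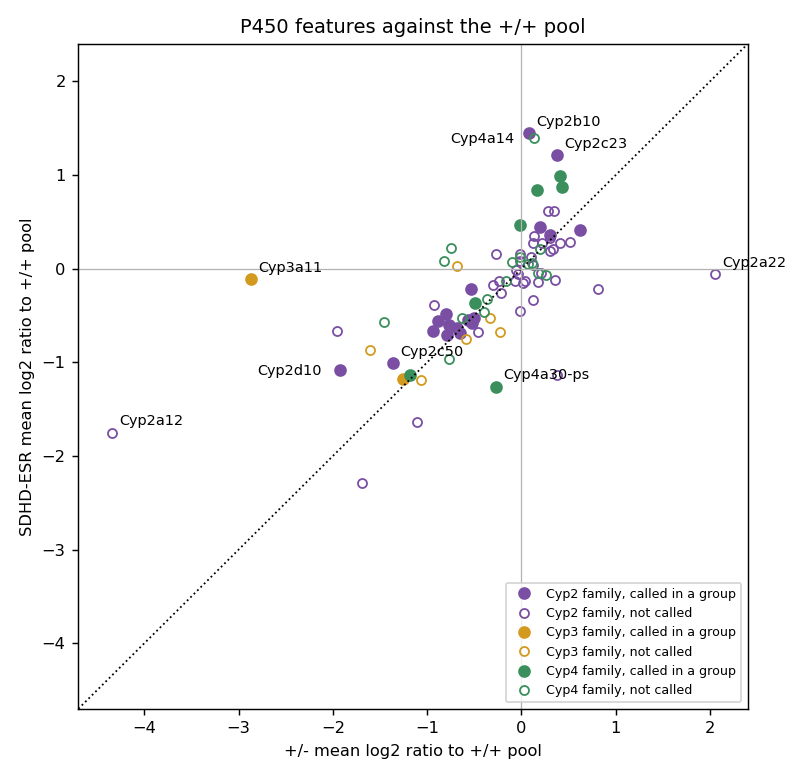
Mean log2 ratio to the +/+ pool on centred arrays of each P450 feature away from 0, in SDHD-ESR (vertical axis) and +/- kidney (horizontal axis), coloured by family; filled points passed an adjusted p of 0.05 in at least 1 group. Points above the dotted line are higher in SDHD-ESR; Cyp3a11 lies at -0.11 in SDHD-ESR and -2.87 in +/-, and Cyp2b10 and Cyp2c23 stand above the pool in SDHD-ESR.

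Most of the lower calls came from 1 liver enzyme, Cyp2c29, which the array carries as 10 features. All 10 were below the pool in both groups, with means between -0.71 and -0.48 in SDHD-ESR and between -0.94 and -0.50 in +/- arrays, and the features differed between the groups by -0.06 to 0.32. Cyp2c50, another hepatic Cyp2c gene, averaged -1.01 ± 0.22 in SDHD-ESR and -1.36 ± 0.33 in +/- arrays (SD, n = 4 each). One feature of Cyp3a59 averaged -1.18 ± 0.28 in SDHD-ESR and -1.26 ± 0.20 in +/- arrays, and Cyp4x1 averaged -1.14 ± 0.72 and -1.18 ± 0.22. Most liver marker features, albumin among them, also lay below the pool. Their median over 24 features of 12 genes was -0.96, -1.46, -1.24 and -0.45 in SDHD-ESR arrays, against -1.80, -1.79, -2.0 and -1.54 in +/- arrays. Of the 24, 20 and 21 were below the pool, and 19 were higher in SDHD-ESR than in +/- kidney. More of the 24 were features of Apoa1 than of any other gene, so these counts and the median weigh that gene heavily. Ttr, Tat and Cps1 stayed closer to the pool, at 0.30, 0.00 and 0.24 in SDHD-ESR and 0.32, -0.03 and -0.02 in +/- arrays. The Serpina1a and Serpina1e features were lower in SDHD-ESR kidney, by -0.48 to -0.15. The median was higher on every SDHD-ESR array than on every +/- array. Among all P450 features this was also so for 1 feature each of Cyp3a11, Cyp2c70, Cyp4a31 and Cyp4a32, while Cyp2c29, Cyp3a59 and Cyp4x1 overlapped. The part of liver-type RNA in these results was not tested. Markers of the proximal tubule, where most renal P450 is made, were near 0 in 9 of 14 features. The other 5, from 4 genes, had medians of 0.54 to 0.63 in SDHD-ESR and 0.31 to 0.48 in +/- arrays. Of these 5, 4 were higher and 1 lower in SDHD-ESR kidney. Slc4a4 was counted more than once and weighs on the medians. Gatm was the lower one, by -0.35 ± 0.32 (SE).

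Genes that work with the P450 enzymes were not called in any list. Among epoxide hydrolases, Ephx2, the soluble enzyme that hydrolyses arachidonic epoxides, measured -0.48, -0.49, -0.32 and -0.17 in SDHD-ESR arrays, against 0.08, 0.37, 0.35 and 0.25 in +/- arrays. The groups were well separated, and the difference was -0.62 ± 0.11 (SE), or 0.649-fold (limma, adjusted p = 0.334). The microsomal Ephx1 differed by 0.29 ± 0.12 and 0.28 ± 0.14. Redox partners were lower in 7 of 9 features of 4 genes, against 17023 of all 37529 features away from 0. The mitochondrial outer membrane cytochrome Cyb5b differed by -0.46 ± 0.10 and -0.34 ± 0.11 (SE, limma adjusted p = 0.404 and 0.584). A feature of the reductase Cyb5r1 differed by -0.30 ± 0.09 (SE, limma adjusted p = 0.539), and all 3 were without overlap. The other Cyb5r1 feature differed by 0.18 ± 0.19. Cyb5a was near 0 on 4 arrays and was not read. Centring alone moves a difference by -0.26, so the distance of the lower features from 0 rests in part on the array medians. P450 reductase itself, Por, was not tested. In haem synthesis Cpox differed by -0.37 ± 0.12 and Uros by -0.27 ± 0.13, with 8 features higher and 7 lower in that list.

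The receptor gene Ppara, the regulator through which Cyp4a14 and Cyp4a10 are induced in mouse liver, measured 0.61, 0.89, 0.61 and 0.62 in SDHD-ESR arrays, against 0.29, 0.30, 0.22 and 0.53 in +/- arrays at one feature. The groups did not overlap at this feature, and the difference was 0.35 ± 0.11 (SE; limma, adjusted p = 0.584). The other 2 Ppara features differed by 0.34 ± 0.17 and -0.06 ± 0.23. Of 26 features of PPAR alpha targets outside the P450 families, 11 were higher and 15 lower with a median of -0.01, unlike the median of 0.58 in Cyp4a. With features near 0 included the medians were -0.02 and 0.27. This contrast was not tested. In that list the peroxisomal thioesterase Acot3 differed by 0.63 ± 0.12 and 0.46 ± 0.12, both without overlap (limma, adjusted p = 0.340 and 0.483), and the lipid carrier Fabp4 by -0.52 ± 0.23. Of 12 features of the estrogen receptor gene Esr1, 1 differed by 3.16 ± 0.47 and the others by -0.65 to 0.49, so its probes disagreed. Of 29 features of other P450 families 19 were higher and 10 lower with a median of 0.06, and those of smallest p were Cyp21a1 at 0.29 ± 0.09 and Cyp1a1 at 1.73 ± 0.56 from 3 values a group (SE; limma, adjusted p = 0.584 and 0.631). The other Cyp21a1 feature differed by -0.56 ± 0.87.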

How the data were processed

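RNA from kidney was labelled and hybridised to Agilent mouse arrays by the authors, the pool carrying Cy3 and the test RNA Cy5, without a dye swap. The authors deposited score values that the methods call log ratios of the channels, most of them log2 ratios here; they are called a score because 9.05% of them were whole numbers that cannot all be log2 ratios and were set to missing. How background was corrected and arrays were normalized is not given in the sources used here. Feature numbers were assigned with an inferred scanner grid of 532 by 85, under which repeated spots had an intraclass correlation of 0.741 (376 accessions), against -0.006 for plain numbers. The sign was turned on the strength of Sdhd alone, and the methods give the dye wavelengths in swapped order. Gene names came from the platform annotation and matched RefSeq symbols.

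Features with at least 3 values per group (39253) entered 1 limma fit (limma 3.58.1, R 4.3.3) of group means with empirical Bayes moderation (prior degrees of freedom 1.46), two-sided tests and Benjamini-Hochberg adjustment over all of them at 0.05. The groups were taken from the labels. Each array mixes 2 mice, so p-values measure the spread between such mixtures. The fit was tested on simulated data. Python 3.11.15, pandas 2.3.3 and scipy 1.17.1 were used for summaries.

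The members, lists and tests were chosen with earlier results of these data known. Named genes were 9 P450 genes in any case, members with an adjusted p of 0.05 or less (at most 5 in a direction of a contrast where over 10 passed), the 8 of smallest p in each direction, the gene of smallest p in each larger subfamily, up to 2 members of each related list, and the 3 members and 3 other genes most correlated with Cyp4a14; further members are described beside them. Alternatives were no centring, scaling, quantile normalization, slide or replicate as a block, small whole numbers kept, features near 0 left out, complete features, gene means, the methods' t-test and leaving out each array. The slide by group test and the fits on single slides were added after seeing the data.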

Additional observations from a re-analysis of the deposited data

Results flagged for a closer look

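In 3 of 60 groups of 4 arrays checked among the named features, 1 array stood apart from the other 3 by Dixon's criterion, which chance alone meets in about 1 of 20 groups. All 3 were +/- arrays. Replicate 2 of +/- was the lowest in Cyp2c70, at -0.47. Replicate 4 of +/- was the lowest in Cyp2j5, at -0.03, while the other +/- arrays stood at 0.24 to 0.26. Replicate 2 of +/- was the highest in Cyp4a30-ps, at 0.44, the only +/- array above the pool at that feature.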

How the results depend on the processing

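No P450 feature passed an adjusted p of 0.05 between SDHD-ESR and +/- kidney under any setting run. Without centring, 1 feature was lower at an unadjusted p of 0.05 (4 with centring), the median difference of the tested members was 0.27 (0.01 with centring and features near 0 included), and 0 features were lower than the pool in SDHD-ESR and 0 higher and 0 lower in +/- kidney. With gene means 1 value was lower. Slide 1 alone gave 18 features higher and a median of 0.07, and slide 2 alone 4 and -0.05. Leaving out each array in turn gave 5 to 12 higher and 2 to 4 lower at an unadjusted p of 0.05, 4 to 7 higher and 6 to 15 lower than the pool in SDHD-ESR, and 0 to 3 higher and 6 to 18 lower in +/- kidney. The 5 higher came without SDHD-ESR replicate 1 or +/- replicate 2, and the 2 lower without SDHD-ESR replicate 2 or +/- replicate 3. Against the pool, SDHD-ESR had 7, 6 and 8 lower without its replicates 1, 2 and 3, and +/- had 10, 10, 6 and 6 lower and 0 higher without its replicates 1 to 4. A replicate block gave 9 higher and 3 lower at an unadjusted p of 0.05 and called none, so it changed no call. Deviations of arrays with the same number correlated at 0.038, 0.035, -0.018 and 0.075, so the numbers were not taken as pairs. Among the named features away from 0, the difference changed sign in 5. Members outside that set were not counted, and some of them changed sign too. Without centring, Cyp2j11 (-0.11) was at 0.15 and Cyp2d9 (-0.22) at 0.04. A Cyp2c29 feature (-0.04) was at 0.22 without centring, 0.04 after scaling, 0.02 without +/- replicate 2, 0.06 without SDHD-ESR replicate 2 and 0.22 on slide 2. Cyp2s1 (0.05) was at -0.02 without +/- replicate 1 (up to 0.12 without other arrays) and -0.12 on slide 2. Cyp2u1 (-0.21) was at 0.05 without centring and 0.11 on slide 2, and Cyp3a13 (0.74) at -0.15 on slide 2. Cyp3a59 (0.08) was at -0.01 without +/- replicate 3, -0.03 without SDHD-ESR replicate 4 (up to 0.18 without other arrays) and -0.04 on slide 1. The cause of these shifts was not tested. Leaving out 1 array moved other named differences by over 1.5 times while they kept their sign: Cyp2a22 (-2.11) was at -0.96 without +/- replicate 2; Cyp2ab1 (-1.04) at -0.48 and Cyp2c67 (-1.52) at -0.66 without +/- replicate 4; Cyp2c67 at -2.34 without +/- replicate 2; Cyp2j13 (-0.44) at -0.26 without +/- replicate 3; Cyp4f40 (0.90) at 0.53 without +/- replicate 2; Cyp4a31 (0.49) at 0.32 without SDHD-ESR replicate 2; and Cyp3a13 (0.74) at 0.20 and 1.15 without SDHD-ESR replicates 2 and 3. Other Cyp2c29 features moved within 0.06 to 0.41, Cyp2r1 within 0.15 to 0.37 and Cyp2u1 within -0.38 to -0.09. No named feature passed the adjusted threshold between the groups, so no call could be lost.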
